A study of Mus musculus with 2 samples.

Results

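Autosomal recessive primary microcephaly, in which the brain is small from birth, is caused by mutations in genes whose products mostly sit at the centrosome, the spindle or the kinetochore. The 10 genes described here, Aspm, Wdr62, Cdk5rap2, Cep152, Cep135, Cenpj, Stil, Mcph1, Knl1 and Nde1, are mouse orthologs of such genes and were chosen by symbol among the 32285 genes of the deposited matrices. All 10 were present and all passed the filter on low counts. Their unique molecular identifiers (UMIs, 1 per captured RNA molecule) were read in single-cell RNA-seq of the dorsal telencephalon of wild-type (WT) mouse embryos at embryonic day 14.5. The labels name 2 libraries, WT replicate 1 and WT replicate 3, both control embryos of the EomesMllt3 cross on the Eomes-Cre line, which carries Cre recombinase under Eomes, a gene of intermediate progenitors. The study's methods give the strain as C57BL/6J. Whether the controls carried Cre, and whether a library is 1 embryo, is not given in the sources used here, and no other genotype, treatment or age was compared. The source is labelled brain hemispheres.

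Radial glial cells (RGCs) line the ventricle and divide to renew themselves or to give rise to neurons, partly through intermediate progenitor cells (IPCs), which express Eomes and mostly divide to give neurons. A dividing cell duplicates its centrioles in S phase, enlarges the pericentriolar material around them in G2 and builds the bipolar spindle in mitosis. Loss of several of the genes described here is known to disturb centriole number, spindle position or chromosome condensation in these progenitors. Neurons leave the cell cycle and keep centrosomes for other uses, such as microtubule organization and cilia.

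The libraries held 6163 and 8870 barcodes with 64182006 and 93295807 UMIs, and 5150 and 6875 cells were kept. The libraries shared 23 barcodes. Among 27 clusters, 4 were RGC-like, 4 IPC-like and 7 projection neuron-like by their markers, with 672 and 1532 RGC-like, 736 and 1436 IPC-like and 2618 and 2879 projection neuron-like cells in replicates 1 and 3. A GABAergic cluster held 322 cells of replicate 1 and 31 of replicate 3, so the libraries did not hold the same mix of cells. RGC-like and IPC-like cells were split into G1, S and G2M by the UMIs of 97 published S and G2M genes, none of them a member, after each cell was thinned to 3000 UMIs. This gave 110 and 257 G1, 213 and 546 S and 327 and 690 G2M RGC-like cells, and 579 and 1128 G1, 54 and 99 S and 99 and 161 G2M IPC-like cells. Of the projection neuron-like cells, 1.18% and 1.73% were called S or G2M. Phase is a cut on a score: 85 and 162 RGC-like and 82 and 221 IPC-like cells lay within 0.05 of it. The G1 call does not separate cells in G1 from cells that have left the cycle. The members and the genes of the lists used below were left out of the genes on which cells were clustered, and the phases come from other genes of the same cells.

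In RGC-like cells the phases fell in different clusters. Cells called G2M made up 79.1% and 78.3% of cluster 5 and 95.5% and 94.7% of cluster 14 in replicates 1 and 3, while G1 cells came mainly from clusters 3 and 11. Cluster 3 held 283 and 513 cells and cluster 11 68 and 313, so the G1 sums of the libraries mix them differently. Cluster 11 also carried Wnt8b and Rspo3 of the cortical hem and choroid plexus markers, but not Ttr, Rspo2, Lmx1a or Folr1. G2M RGC-like cells had a median of 15118 and 13421.5 UMIs against 10888 and 10013 in G1, and G1 RGC-like cells carried more IPC marker RNA, 578 and 667 CPM against 269 and 259. RGC marker RNA was 8823 and 5216 CPM in G1 and 7467 and 5767 CPM in G2M. Erythroid marker RNA reached 1654 CPM in S RGC-like cells of replicate 1 and lay between 104 and 853 CPM in the other RGC-like sums. The part of these in the phase differences was not tested. Levels are given as UMIs per 1000000 (CPM) among the summed UMIs of a state's cells. A library made from the 3' end does not scale with length, but capture differs between genes, so levels are compared between states and not between members.

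Promoter sequences are shown for some of the members, and whether they relate to the levels given below was not tested. RefSeq promoter sequences (GRCm38.p6, the assembly that the submitters' notes call mm10) from 250 bases before to 50 bases after the start were found for 9 members, and Mcph1 had no entry. The first pair below belongs to members that peaked in G2M, the third to a centriole gene already raised in S, and the fourth to a member that neurons kept. Capitals mark matches, on either strand, to the CHR element TTTGAA of G2M genes, to the NF-Y box CCAAT and to the E2F site GCGGGAA.
Aspm, chr1:139454523-139454822, plus strand: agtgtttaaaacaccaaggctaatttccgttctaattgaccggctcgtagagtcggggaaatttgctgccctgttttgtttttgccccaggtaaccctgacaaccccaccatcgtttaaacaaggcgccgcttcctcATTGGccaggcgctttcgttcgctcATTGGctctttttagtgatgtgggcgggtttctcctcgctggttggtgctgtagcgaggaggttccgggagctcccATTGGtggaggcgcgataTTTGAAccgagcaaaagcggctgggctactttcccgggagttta
Knl1, chr2:119046869-119047168, plus strand: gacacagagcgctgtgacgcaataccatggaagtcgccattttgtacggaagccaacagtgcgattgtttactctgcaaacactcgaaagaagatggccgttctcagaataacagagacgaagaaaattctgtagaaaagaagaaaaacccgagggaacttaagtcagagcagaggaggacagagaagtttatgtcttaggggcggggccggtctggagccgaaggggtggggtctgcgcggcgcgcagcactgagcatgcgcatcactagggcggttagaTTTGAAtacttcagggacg
Stil, chr4:114999868-115000167, plus strand: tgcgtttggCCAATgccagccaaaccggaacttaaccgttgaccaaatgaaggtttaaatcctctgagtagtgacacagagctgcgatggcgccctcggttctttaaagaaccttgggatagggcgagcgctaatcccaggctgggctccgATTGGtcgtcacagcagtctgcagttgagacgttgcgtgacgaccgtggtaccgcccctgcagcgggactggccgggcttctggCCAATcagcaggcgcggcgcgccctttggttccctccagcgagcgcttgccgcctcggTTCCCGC
Cenpj, chr14:56571797-56572096, minus strand: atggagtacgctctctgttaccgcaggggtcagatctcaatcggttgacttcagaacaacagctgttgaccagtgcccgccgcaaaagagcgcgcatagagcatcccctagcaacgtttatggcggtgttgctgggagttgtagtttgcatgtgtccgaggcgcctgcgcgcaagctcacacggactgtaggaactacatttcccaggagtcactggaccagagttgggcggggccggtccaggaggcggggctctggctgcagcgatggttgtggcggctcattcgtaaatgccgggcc
The CHR letters were found in 3 of the 9 members, Aspm, Knl1 and Cdk5rap2, against 18.1% of 27025 promoters of that length. CCAAT was found in 6 of 9, against 37.9%, and the E2F letters in 3 of 9, Wdr62, Cep152 and Stil, against 4.66%. The motifs do not overlap each other's letters in these windows, and a match is a run of letters only. The matches did not sort the members by phase. Nde1, which also peaked in G2M, held no CHR letters, and Cep135, a centriole gene already raised in S, held no E2F letters. Aspm held CCAAT 3 times and the CHR letters once, beginning 6 bases after the start. Cenpj held none of them in its window. That window ends at 56572096, inside the annotated span of this minus-strand gene, which runs to 56575489. The windows of Aspm and Wdr62 also lie inside the spans of their genes. Other starts were not searched.

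Every member was higher in G2M than in G1 RGC-like cells, in both libraries. All 10 passed edgeR's quasi-likelihood test at a Benjamini-Hochberg adjusted p under 0.05, among 13531 genes of which 7.26% were called higher and 3.66% lower. The members' median log2 fold change was 2.42, and that of all genes tested was -0.01. The increases fell into a pair of sizes, between 1.48 and 2.56 for Mcph1, Cep135, Cdk5rap2, Cenpj, Cep152 and Nde1 and between 4.88 and 5.78 for Wdr62, Aspm, Knl1 and Stil. With the library as a block the same number of members passed, while the genes called in either direction went from 1478 to 2315. All 10 were also higher as UMIs per cell, but G2M cells held more UMIs in all, so this adds little. Ndel1, a paralog of Nde1 that was not called here, also rose per cell. It went from 0.391 and 0.327 UMIs in G1 to 0.419 and 0.449 in G2M in replicates 1 and 3. In S against G1 RGC-like cells 9 of the 10 rose, where 7.15% of genes were called higher and 3.27% lower. The exception was Nde1, with a log2 fold change of 0.69 and an adjusted p of 0.0531. It passed with the library as a block (adjusted p = 0.0378) and without the filter on low counts (adjusted p = 0.00594). It also passed with predicted doublets kept (adjusted p = 0.00697), at Leiden resolution 2.0 (adjusted p = 0.0162) and with another thinning seed (adjusted p = 0.03). The block raised the number of genes called in that comparison from 1410 to 2187.

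**Figure D1:**
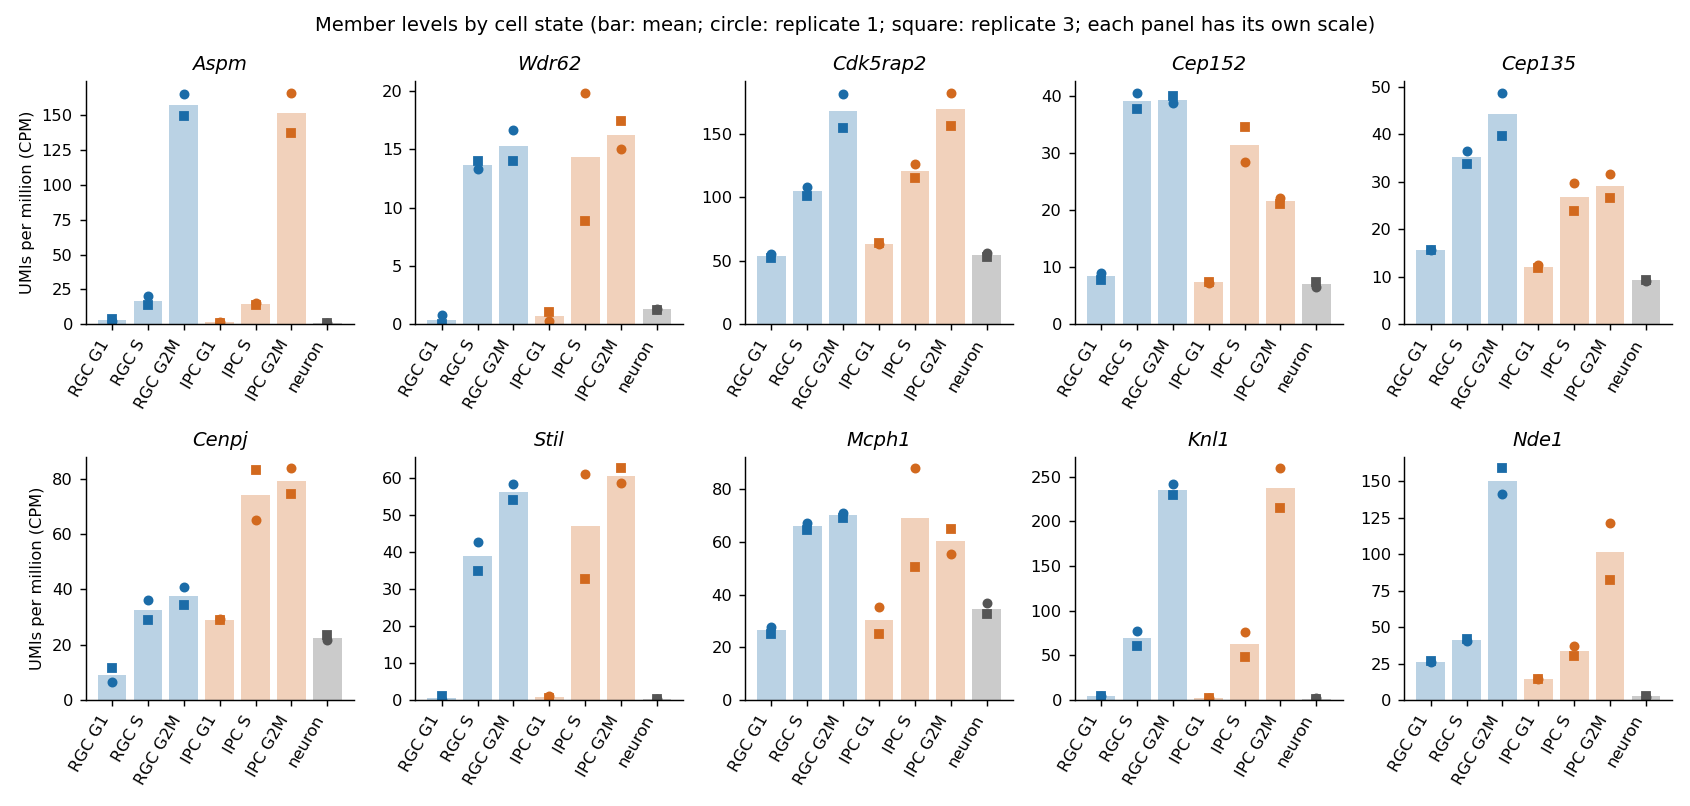
CPM (vertical axis, a separate scale in each panel) of the 10 members in 7 cell states (horizontal axis), with bars at the mean of the 2 libraries, circles for replicate 1 and squares for replicate 3. Aspm, Knl1 and Nde1 are highest in G2M, the centriole genes lie above their G1 level in both S and G2M, and Cdk5rap2, Mcph1 and Cenpj keep part of their level in neurons.

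Aspm, whose product binds microtubule minus ends at the spindle poles, had the steepest rise from S to G2M. It stood at 2.46 and 3.91 CPM in G1 RGC-like cells of replicates 1 and 3, at 20.5 and 13.7 CPM in S and at 165 and 149 CPM in G2M. The 3 ranges did not overlap. The log2 fold change was 5.47 ± 0.25 (SE) for G2M against G1 (adjusted p = 2.69e-08) and 3.25 ± 0.17 for G2M against S (adjusted p = 3.16e-07). For S against G1 it was 2.22 ± 0.32, with 2.96 in replicate 1 and 1.77 in replicate 3. IPC-like cells followed the same order, with 1.78 and 1.06 CPM in G1, 15.6 and 14.2 CPM in S and 166 and 137 CPM in G2M. Projection neuron-like cells held 0.799 and 0.796 CPM.

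Wdr62 encodes a spindle pole scaffold that works with Aspm, and its levels in S and G2M were close. It was counted with 1 UMI in all G1 RGC-like cells, at 0.821 and 0 CPM, and reached 13.3 and 14.001 CPM in S and 16.6 and 14.01 CPM in G2M. The ratio of G2M to G1 was 56.2, with an exact 95% counting interval from 9.99 to 2231, so its size is poorly known. The plain difference in log2 CPM, with a prior count of 2, was 3.94 in replicate 1 alone and 5.96 in replicate 3 alone. Replicate 3 had no UMI in G1, so the size of its value depends on the prior count. G2M and S did not differ detectably (log2 fold change 0.16 ± 0.30, adjusted p = 0.832). In IPC-like cells Wdr62 went from 0.324 and 1.06 CPM in G1 to 15.02 and 17.4 CPM in G2M.

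Cdk5rap2 anchors gamma-tubulin ring complexes in the pericentriolar material. Its level rose in 2 steps, from 55.8 and 52.4 CPM in G1 to 108 and 102 CPM in S and 181 and 155 CPM in G2M RGC-like cells. Each step passed the test, with log2 fold changes of 1.02 ± 0.12 for S against G1 (adjusted p = 0.000171) and 0.69 ± 0.11 for G2M against S (adjusted p = 0.00233). Projection neuron-like cells kept 56.4 and 53.3 CPM, between G1 RGC-like and G1 IPC-like cells, at 63.5 and 63.9 CPM, in each library. After TMM scaling, G1 RGC-like cells differed from these neurons by -0.27 ± 0.12 on the log2 scale, which did not pass (adjusted p = 0.0783) except with the library as a block (adjusted p = 0.046) and at 3 other settings of clustering or thinning.

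Cep152, Cep135, Cenpj and Stil act in centriole assembly. Cep152 recruits the kinase Plk4 to the parent centriole, Stil and Cep135 belong to the cartwheel from which the new centriole grows, and Cenpj lengthens its microtubule wall. None of the 4 passed the test between G2M and S RGC-like cells, with log2 fold changes of 0.02 for Cep152, 0.33 for Cep135, 0.24 for Cenpj and 0.55 for Stil and adjusted p-values between 0.173 and 0.959. Stil was higher in G2M than in S in both libraries, and it passed with the library as a block (adjusted p = 0.0223) and without the filter on low counts (adjusted p = 0.0369). The misses are read against their errors, which lay between 0.12 and 0.22 on the log2 scale.

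Stil changed most in this group. It had 0 UMIs in G1 RGC-like cells of replicate 1 and 3 UMIs in those of replicate 3, or 0 and 1.17 CPM, against 42.6 and 34.9 CPM in S and 58.2 and 53.9 CPM in G2M. The ratio of G2M to G1 was 69.7, with an exact 95% counting interval from 23.8 to 339, and that of S to G1 was 46.9 (15.9 to 228). Stil was also the member nearest to 0 in neurons, at 0.333 and 0.191 CPM. The plain difference of G2M and G1 in log2 CPM, with a prior count of 2, was 7.52 in replicate 1 alone and 5.28 in replicate 3 alone. Replicate 1 had no UMI in G1, so the size of its value depends on the prior count.

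Cep152 rose from 9.03 and 7.82 CPM in G1 to 40.6 and 37.7 CPM in S and 38.8 and 39.9 CPM in G2M RGC-like cells. Cep135 rose from 15.6 and 15.6 CPM to 36.5 and 33.8 CPM in S and 48.7 and 39.6 CPM in G2M. The log2 fold changes of G2M against G1 were 2.28 ± 0.18 and 1.54 ± 0.17. For both, the S and G2M values of each library lay above all G1 values.

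Cenpj differed from the other centriole genes in that IPC-like cells held more of it than RGC-like cells. It stood at 6.56 and 11.7 CPM in G1 and 40.99 and 34.5 CPM in G2M RGC-like cells, against 29.3 and 28.9 CPM in G1 and 83.8 and 74.3 CPM in G2M IPC-like cells. The progenitors did not overlap in either phase. The rise from G1 to G2M in RGC-like cells was 1.96 ± 0.23 on the log2 scale, with 2.65 in replicate 1 and 1.55 in replicate 3. The differences between the progenitors on the log2 scale were -1.66 ± 0.23 in G1 (adjusted p = 0.000171) and -1.11 ± 0.17 in G2M (adjusted p = 0.000403), and both held under all alternatives tested, with adjusted p-values up to 0.000998.

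Mcph1 encodes microcephalin, which keeps chromosomes from condensing before mitosis. It was at 27.9 and 25.0 CPM in G1, 67.2 and 64.7 CPM in S and 71.1 and 69.3 CPM in G2M RGC-like cells, so that S and G2M lay together above G1 (G2M against S 0.10 ± 0.18, adjusted p = 0.815). Projection neuron-like cells held 36.9 and 32.7 CPM, more than G1 RGC-like cells in both libraries. In that comparison the log2 fold change of RGC-like cells was -0.65 ± 0.22 (adjusted p = 0.0232), and it lost the call without TMM scaling (-0.41, adjusted p = 0.15). The gene Angpt2 lies within the span of Mcph1 on the opposite strand and was counted at 3.28 to 8.61 CPM in the same states.

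Knl1 is the kinetochore scaffold to which the checkpoint kinase Bub1 and its relative Bub1b dock. It rose from 4.92 and 4.30 CPM in G1 to 77.8 and 60.9 CPM in S and 242 and 229 CPM in G2M RGC-like cells. The log2 fold changes were 3.90 ± 0.28 for S against G1 and 1.79 ± 0.16 for G2M against S (adjusted p = 1.71e-06 and 2.04e-05). Like Aspm it was near 0 in projection neuron-like cells, at 1.90 and 1.37 CPM.

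Nde1 binds dynein and Lis1 and acts in spindle orientation and nuclear movement. Most of its rise lay between S and G2M. RGC-like cells held 26.3 and 26.6 CPM in G1, 40.2 and 41.9 CPM in S and 141 and 159 CPM in G2M. G2M exceeded S by a log2 fold change of 1.87 ± 0.16 (adjusted p = 1.75e-05). Marf1 overlaps Nde1 on the opposite strand and stood at 58.3 and 56.7 CPM in G1 and 56.05 and 57.05 CPM in G2M, and whether the counting used strand is not given in the sources used here.

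G2M against S RGC-like cells thus separated the members, with Aspm, Nde1, Knl1 and Cdk5rap2 higher in G2M and none lower. These 4 of 10 stand against 3.13% of all genes called higher and 2.99% lower. The other 6 had log2 fold changes between 0.02 and 0.55. With the library as a block 5 members were higher, Stil among them, and the genes called in either direction went from 828 to 1791.

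**Figure D2:**
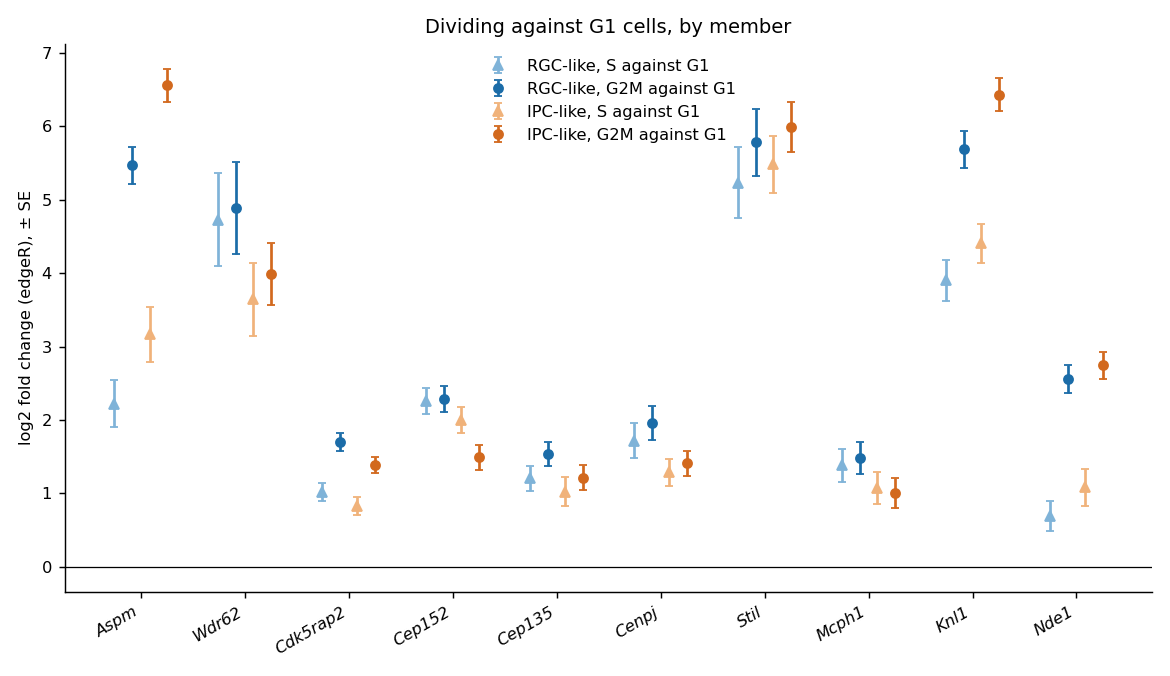
Log2 fold changes from edgeR (vertical axis, bars are ± 1 SE) of each member (horizontal axis) for S against G1 (triangles) and G2M against G1 (circles), in RGC-like cells (blue) and IPC-like cells (orange). Aspm has the widest gap between S and G2M in RGC-like cells, 2.22 against 5.47, and Cep152 the narrowest, 2.26 against 2.28.

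The same cells could be ordered by the UMIs of the G2M gene list, in bins of the 3000 UMIs to which each cell was thinned. Replicate 1 and replicate 3 gave similar courses in RGC-like cells. Aspm stayed between 4.31 and 8.09 CPM over the bins from 3 to 10 UMIs and reached 61.0 and 51.6 CPM at 21 to 40 and 212 and 200 CPM at 41 or more. Stil had reached 48.0 and 48.3 CPM at 21 to 40 UMIs and 72.4 and 68.1 CPM above, and Cep152 went from 44.2 and 43.5 CPM to 43.8 and 46.3 CPM over the same bins. In the last bin 99.5% and 99.8% of RGC-like cells were called G2M, since the same list enters the phase. The lowest bin of 0 to 2 UMIs held 15 and 25 RGC-like cells and is read with that in mind.

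**Figure D3:**
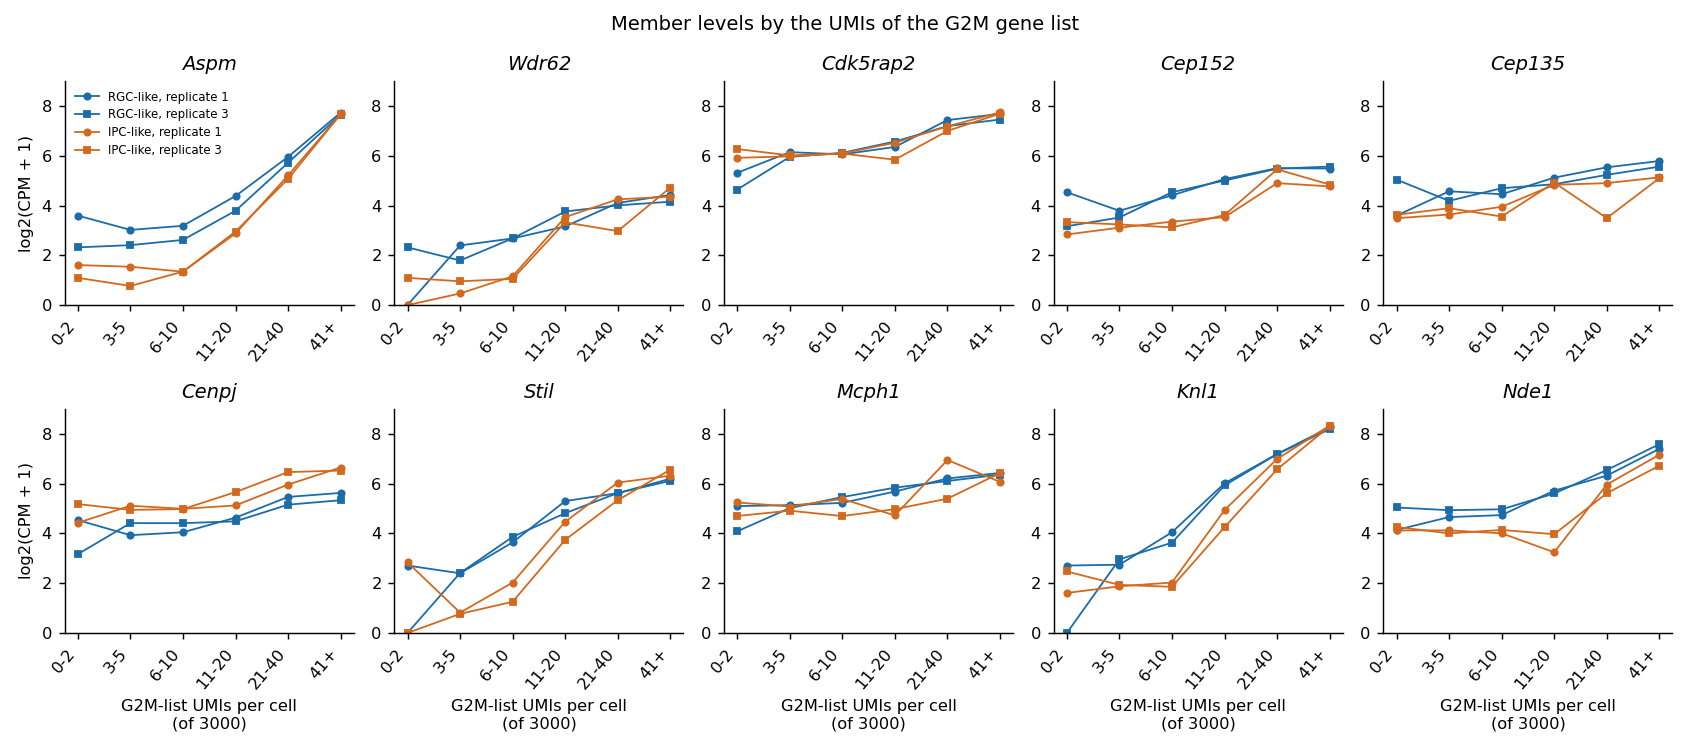
Level of each member as log2(CPM + 1) (vertical axis) in 6 bins of G2M-list UMIs per cell, out of 3000 (horizontal axis), in RGC-like (blue) and IPC-like cells (orange) of replicate 1 (circles) and replicate 3 (squares). Aspm and Nde1 turn upward only in the upper bins, Stil and Knl1 climb from the middle bins, and Mcph1 and Cdk5rap2 begin at a higher level and climb slowly.

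Clusters 5 and 14, both RGC-like and mostly G2M, differed in several members, given here as values with no test. Cluster 5 was led by Hist1h1b, Top2a and Aurkb, and cluster 14 by Cenpa, Cdc20 and Ccnb2, genes whose RNA is known to peak late, around mitosis. Mcph1 stood at 92.3 and 89.6 CPM in cluster 5 and at 15.4 and 17.4 CPM in cluster 14 of replicates 1 and 3. Stil went from 78.4 and 74.2 CPM to 12.1 and 7.47 CPM. Cdk5rap2 went from 216 and 179 CPM to 75.9 and 78.7 CPM, and Cep152 from 52.5 and 54.4 CPM to 9.90 and 18.4 CPM. Wdr62, Knl1, Cep135 and Cenpj were also lower in cluster 14 in both libraries. The share of all genes lower in cluster 14 was not counted, so these values are not read as particular to the members. Nde1 lay the other way, at 133 and 145 CPM in cluster 5 and 166 and 169 CPM in cluster 14, and Aspm stayed close, at 167 and 142 CPM against 145 and 124 CPM. Cells of cluster 5 had a median of 17684 and 16970 UMIs and those of cluster 14 9347 and 9599, a gap whose part in these values was not tested. The mean of G2M RGC-like cells given above mixes both clusters.

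In IPC-like cells all 10 members rose in G2M and all 10 in S, against 7.94% and 9.80% of genes called higher and 6.91% and 10.2% called lower. Here too the phases fell in different clusters. Cells called G2M made up 76.5% and 78.3% of cluster 17 in replicates 1 and 3 and G1 cells 1.02% and 0.699%, while G1 cells made up between 82.1% and 97.8% of clusters 2, 4 and 15. The part of this in the phase differences was not tested. The S sums rest on 54 and 99 cells and spread more: Stil was at 61.0 and 32.8 CPM, Mcph1 at 88.0 and 50.5 CPM and Wdr62 at 19.9 and 8.85 CPM. Knl1 reached 259 and 215 CPM in G2M IPC-like cells, and Nde1 121 and 82.0 CPM. When the upper and lower terciles of G2M-list UMIs took the place of the phases, 8 of the 10 still passed. Cep135 (0.73, adjusted p = 0.0638) and Mcph1 (0.58, adjusted p = 0.109) did not. With terciles the genes called in either direction went from 2009 to 703, and those called higher from 1074 to 545.

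Whether the rise differed between the progenitors was tested as an interaction. No member passed by edgeR's quasi-likelihood test, and none by DESeq2 or with the library as a block, while 0.0517% of genes were called higher and 0.103% lower. With the block, 126 genes were called in either direction in place of 21. Aspm had a G1 to G2M rise 1.09 ± 0.44 smaller in RGC-like cells on the log2 scale (-1.09, adjusted p = 0.455). Cep152 had a rise larger by 0.79 ± 0.25 (adjusted p = 0.377). Only these members had an unadjusted p under 0.05. The share of all genes at that cut-off was not counted, so their number is not read as a result. Standard errors of the other 8 lay between 0.17 and 0.97, so that sizeable differences could have gone unseen.

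Levels themselves differed for a few members. In G2M, RGC-like cells held more Cep152, Cep135 and Nde1 than IPC-like cells (0.82, 0.55 and 0.54 on the log2 scale) and less Cenpj. Among all genes 13.7% were called higher and 12.7% lower, so the number of members is not read as a trait of them. Cep152 was at 38.8 and 39.9 CPM in RGC-like and 22.1 and 21.02 CPM in IPC-like G2M cells. With DESeq2, Cep135 (adjusted p = 0.0539) and Nde1 (adjusted p = 0.0555) no longer passed. Nde1 also lost its call with predicted doublets kept (adjusted p = 0.0653), at Leiden resolution 0.5 (adjusted p = 0.0693) and with phases scored at 5000 UMIs (adjusted p = 0.086). The difference of Nde1 was 0.17 in replicate 1 and 0.89 in replicate 3. Aspm and Knl1, at 0.01 ± 0.15 and -0.06 ± 0.15, differed little in G2M between these progenitors.

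In G1, RGC-like cells held more Nde1 than IPC-like cells did (0.72 ± 0.22, adjusted p = 0.0219), and Cenpj and Cdk5rap2 were lower. Among all genes 15.9% were called higher and 17.5% lower, so the number of members called is near the background. Nde1 was at 26.3 and 26.6 CPM against 14.3 and 14.8 CPM. The value of Cdk5rap2, -0.38 ± 0.12, lost its call with DESeq2 (-0.29, adjusted p = 0.171), without TMM scaling (-0.24, adjusted p = 0.176), without the filter on low counts (-0.42, adjusted p = 0.0634) and with predicted doublets kept (-0.32, adjusted p = 0.0858). That of Nde1 lost it with predicted doublets kept (0.33, adjusted p = 0.292). With the library as a block Aspm was also called higher (1.11, adjusted p = 0.0441), as it was under 5 other alternatives, with adjusted p-values from 0.00159 to 0.049.

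Against projection neuron-like cells, which do not divide, G1 RGC-like cells held more Aspm, Knl1, Nde1 and Cep135 and less Cenpj and Mcph1. These 4 higher and 2 lower members stand against 24.7% and 28.4% of all genes, so that their number is near the background. With the library as a block Cdk5rap2 was also called lower (-0.26, adjusted p = 0.046), which made 3 lower. Nde1 differed most, at 26.3 and 26.6 CPM in G1 RGC-like and 2.03 and 2.90 CPM in neurons of the projection type (3.06 ± 0.23, adjusted p = 2.73e-07). Aspm and Knl1 differed by 1.60 and 1.12 on the log2 scale, from 3 and 10 UMIs of Aspm and 6 and 11 UMIs of Knl1 in G1 RGC-like cells. Knl1 lost the call with predicted doublets kept (0.47, adjusted p = 0.184), and Cep135 with a stricter cell filter (0.44, adjusted p = 0.0862) and without the filter on low counts (0.41, adjusted p = 0.219). Cenpj was lower by 1.40 ± 0.23 (-1.40, adjusted p = 0.000251), with 21.6 and 23.4 CPM in the neurons.

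Between G1 IPC-like and projection neuron-like cells only Nde1 was called among the 10, at 14.3 and 14.8 CPM against 2.03 and 2.90 CPM (2.34 ± 0.19, adjusted p = 8.8e-07). Of all genes 21.4% were called higher and 22.8% lower, so the number of members is not read as a trait of them. The other 9 had log2 fold changes between -0.66 and 0.83. With the library as a block Mcph1 was called lower (-0.34, adjusted p = 0.0384). Aspm, Knl1, Stil and Wdr62 were thus at or below 2.48 CPM in both G1 IPC-like cells and neurons.

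The share of cells with at least 1 UMI, at 3000 UMIs per cell, followed the same order. Aspm was seen in 29.7% (Wilson 95% interval 25.0% to 34.8%) and 29.0% (25.7% to 32.5%) of G2M RGC-like cells, in 3.76% and 2.75% of S cells, and in 0 of 110 G1 cells of replicate 1, which allows a share of up to 2.73%, and 1.17% of those of replicate 3. Knl1 was seen in 44.6% and 40.4% of G2M RGC-like cells and Nde1 in 33.0% and 34.6%. In erythroid-like cells, which had a median of 4307 and 3602 UMIs before thinning, the shares were 3.70% and 0% for Aspm and 2.47% and 2.15% for Knl1. For Aspm these are 3 of 81 and 0 of 93 cells, and the latter allows a share of up to 3.23%. The Aspm shares of S RGC-like cells, 3.76% against 3.70% in replicate 1 and 2.75% against that limit in replicate 3, could not be told from those of erythroid-like cells. All erythroid-like cells together held Aspm at 21.8 and 1.12 CPM in replicates 1 and 3. Whether they measure background RNA was not tested. The neurons, at 0.235% and 0.289%, lay below the S RGC-like share in both libraries. They also lay below the erythroid-like share in replicate 1 and under the limit in replicate 3. Without thinning the G2M share of Aspm was 63.9% on the mean of the libraries. Intervals and limits cover counting error only.

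Other lists of centrosome and spindle genes give the frame, and the genes that scored the phase are left out of them. In G2M against G1 RGC-like cells, 7.26% of all genes were called higher and 3.66% lower. Of 15 other primary microcephaly genes 8 were called higher and 0 lower, with a median log2 fold change of 1.24. The most changed were Kif14, a kinesin of cytokinesis (6.35), Cit, the citron kinase of the midbody (5.41), and Ncaph, a condensin subunit (3.98). Of 20 centriole assembly genes 13 were called higher, with a median of 0.96. Plk4, the kinase that starts centriole duplication, led with 3.16, ahead of Cep192 (2.91) and Poc1a (2.77).

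Of 16 genes of the pericentriolar material and gamma-tubulin complexes 5 were called higher, with a median of 0.44. Pcnt, the pericentrin scaffold, rose by 1.66, Tubg1 by 1.18 and Nedd1 by 1.14. Of 18 genes of spindle poles and orientation 10 were called higher (median 0.80), led by the mitotic kinase Plk1 (6.39) and the augmin subunits Haus3 (2.67) and Haus5 (2.34). All 13 outer kinetochore and spindle checkpoint genes tested were called higher, with a median of 3.39. Spc25 of the Ndc80 complex (6.39), Kntc1 (5.04) and the checkpoint protein gene Bub1b (4.55) led it. No gene of these 5 lists was called lower in this comparison.

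**Figure D4:**
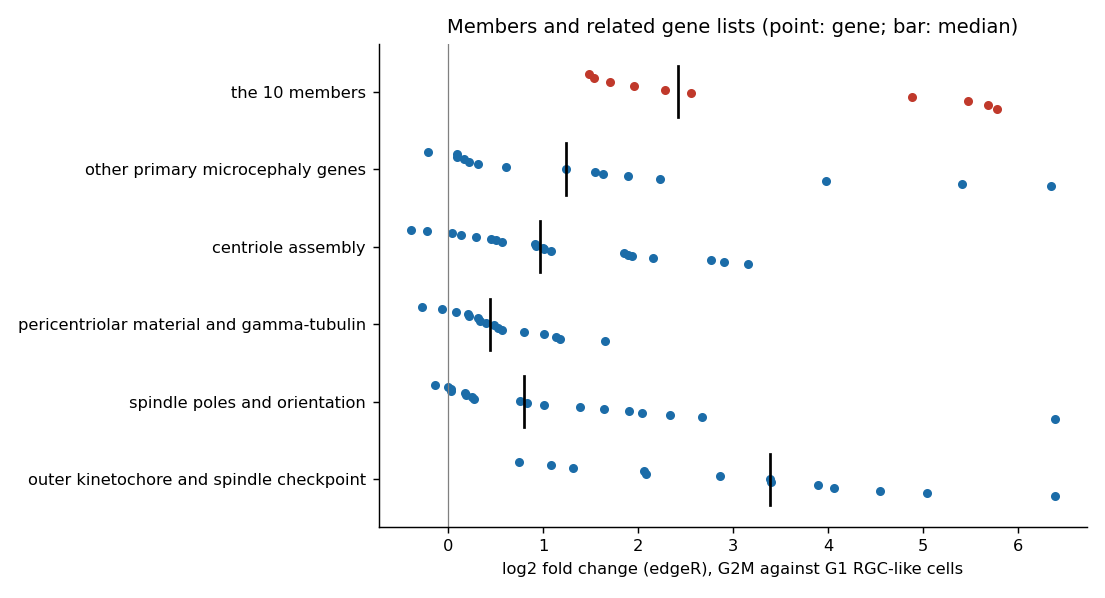
Log2 fold change from edgeR of G2M against G1 RGC-like cells (horizontal axis) for each gene (point) of the 10 members (red) and of 5 related lists (blue), with a black bar at each median. The members lie between 1.48 and 5.78, and the pericentriolar material list lies closest to 0, with a median of 0.44.

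Against neurons the lists were mixed, as the members were. Of all genes 24.7% were called higher and 28.4% lower in G1 RGC-like cells, so these counts are not read as a trait of the lists. Of the 20 centriole assembly genes 4 were higher and 7 lower in G1 RGC-like cells, with Cep295 at -1.38, Cntrob at -1.29 and Cep63 at 1.09. Nin, which encodes the subdistal appendage protein ninein, was at 27.1 and 21.9 CPM in G1 RGC-like and 264 and 245 CPM in neurons of the projection type (-3.64 ± 0.17). Among the 15 other microcephaly genes tested 5 were higher and 2 lower, led by Cdk6, a G1 kinase, at 4.03. Among the 13 outer kinetochore genes tested 4 were higher and 2 lower, led by Spc24 (2.54), Bub1b (2.49) and Pmf1 (2.06).

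Nde1 has a paralog, Ndel1, which did not follow it. Ndel1 was at 35.3 and 32.9 CPM in G1, 31.0 and 24.0 CPM in S and 27.1 and 31.0 CPM in G2M RGC-like cells, while neurons of the projection type held 34.4 and 34.7 CPM. For G2M against G1 its log2 fold change was -0.14 ± 0.16 (adjusted p = 0.685), against 2.56 ± 0.19 for Nde1. Myh10 overlaps Ndel1 on the opposite strand and was counted at 126 and 135 CPM in G1 RGC-like cells.

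**Figure D5:**
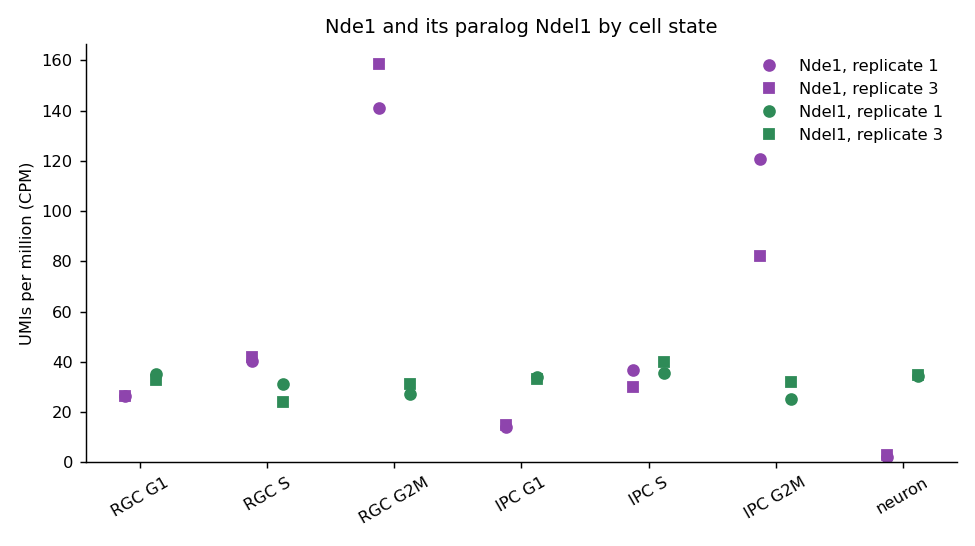
CPM (vertical axis) of Nde1 (purple) and Ndel1 (green) in 7 cell states (horizontal axis), in replicate 1 (circles) and replicate 3 (squares). Ndel1 lies between 24.0 and 39.8 CPM in all states, while Nde1 runs from 2.03 CPM in neurons to 159 CPM in G2M RGC-like cells.

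Over the 14 sums of state and library, log2(CPM + 1) of the members correlated with r from 0.43, for Cenpj and Nde1, to 0.98, for Cdk5rap2 and Knl1. Points of 1 library share its depth and preparation, so these are descriptions. Of 8963 genes, those most like Aspm were H2afx, Plk1 and Prc1, those most like Knl1 Ska3, Ncapg and Mad2l1, and those most like Stil Mastl, Hist1h1a and Fbxo5, with r between 0.989 and 0.996. Cdk5rap2 was most like Sgo1, Dbf4 and Kif22, Nde1 most like Rnaseh2c, Nudcd2 and Lockd, Cep152 most like Hspa14, Kif24 and Mcm10, and Cep135 most like Rpp30, Rcc1 and Cenpq. Mcph1 was most like Lin54, Srbd1 and Cep128. Cenpj had the weakest likeness, to Ezh2 (r = 0.953), Hnrnpab and Nfatc2ip. Wdr62 averaged 8.85 CPM, under the 10 CPM asked for this measure.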

How the data were processed

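Single-cell RNA-seq libraries (10x Genomics 3' v3.1) of 2 WT samples were analysed from the deposited matrices of UMI counts per gene and cell, which the authors made with Cell Ranger 7.0.0 on mm10 per the submitters' notes. The intron setting, the annotation and the strand of counting are not given in the sources used here. Median UMIs per barcode were 9802 and 9754. The members and gene lists were chosen with earlier results of these data known.

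Cells were required to have 1500 to 60000 UMIs, with less than 10% of them mitochondrial, and predicted doublets, 304 and 629, were removed by simulated doublets at 0.8% per 1000 barcodes. Cells were clustered with scanpy 1.11.5 (2000 variable genes, 30 components, 15 neighbours, Leiden resolution 1.0) and classes named from 85 markers. Phases were scored on cells thinned to 3000 UMIs, and shallower cells were left out. Raw counts were summed into 14 sums (7 states in 2 libraries) and tested over 13531 genes with edgeR 4.0.16 (quasi-likelihood, TMM, no block), with p-values adjusted by Benjamini-Hochberg over all genes and called under 0.05. Cells are not replicates, and the spread is that between 2 libraries, which may be technical. SE is the absolute log2 fold change over the square root of the test's F. It can understate the error of members with few UMIs, such as Wdr62 and Stil in G1 RGC-like cells.

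The 7 states of a library come from the same sample, so the library number pairs them. The correlations of library differences between states ran from 0.105 to 0.326, and values with the library as a block are given where a call changed. The test was checked on simulated data. Alternatives were DESeq2 1.42.0, scaling, filters, clustering, thinning and single libraries.

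Genes named beside the 10 members were, for each list, the 3 with the greatest absolute log2 fold change among those called with 1 sign in both libraries, for each member averaging at least 10 CPM over the sums the 3 genes of highest Pearson r, the paralog Ndel1, and protein-coding genes overlapping a member. The gene Trappc14 of the microcephaly list was not among the 32285 genes. Protein sequences were not used here.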

Additional observations from a re-analysis of the deposited data

How the results depend on the processing

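Of 1220 values of single members recomputed, 1098 kept direction and side of the threshold or, in 1 library alone, moved by no more than the spread between libraries. That spread comes from the same 2 values that it judges, so the single libraries are a weak check. Under alternatives with a test, 945 values kept direction and side of the threshold, 28 turned sign, 31 gained a call and 16 lost it. Without TMM scaling the median of all genes moved by 0.24 for G1 RGC-like and by 0.11 for G1 IPC-like cells against projection neuron-like cells and by 0.13 between G1 RGC-like and IPC-like cells, and DESeq2 and no filter on low counts moved the interaction by -0.11 and 0.12. Genes called higher among all called went from 3343 of 7184 to 4546 of 7348 (G1 RGC-like against neurons) and from 2158 of 4524 to 2708 of 4479 (G1 RGC-like against IPC-like) without TMM, from 1326 of 2700 to 1581 of 2585 for S against G1 IPC-like cells without TMM and 1529 of 2517 with DESeq2, and, with DESeq2, from 1074 of 2009 to 1287 of 1974 (G2M against G1 IPC-like), to 2465 of 4257 (G1 RGC-like against IPC-like) and from 7 of 21 to 22 of 123 (interaction). For G1 RGC-like against projection neuron-like cells, the 2 members lower became 1 without TMM and 4 at Leiden resolution 2.0. For G1 IPC-like against projection neuron-like cells, the 1 member higher became 2 without TMM and with a stricter cell filter, and the 0 lower became 1 with the replicate block, 1 without the filter on low counts and 2 with doublets kept. In G2M RGC-like against IPC-like cells, the 3 higher became 1 with DESeq2. In G1 RGC-like against IPC-like cells, the 1 higher became 2 with the replicate block, DESeq2 or no TMM, 4 at Leiden resolution 0.5 and 3 at 2.0, and the 2 lower became 1 with DESeq2, no TMM, no filter on low counts or doublets kept. The replicate block changed no other count of members by over 1.5 times, but among all genes it raised the calls by over 1.5 times for RGC-like cells in G2M against S (828 to 1791), G2M against G1 (1478 to 2315) and S against G1 (1410 to 2187) and for the interaction (21 to 126). Other alternatives did so for G2M and S against G1 RGC-like cells with doublets kept (2528 and 2477 genes) and for the interaction, with 123 (DESeq2), 320 (no filter on low counts), 74 (stricter cell filter), 185 (doublets kept), 161 and 87 (Leiden 0.5 and 2.0) and 61 genes (5000 UMIs), and G2M against G1 IPC-like cells fell from 2009 to 703 with terciles. The counts of members higher in G2M or S than in G1 changed by at most 2 under these alternatives. Shares of G2M RGC-like cells with a UMI rose with depth, from 29.3% to 44.0% (5000 UMIs) and 63.9% (no thinning) for Aspm, from 42.5% to 57.2% and 73.9% for Knl1, and from 33.6% to 47.5% and 73.0% for Cdk5rap2.

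Under alternatives with a test, signs turned only for members that were not called (log2 values). For G1 RGC-like against projection neuron-like cells, Cep152 (-0.00) became 0.040 (DESeq2), 0.23 (no TMM), 0.078 (doublets kept), 0.30 and 0.064 (Leiden 0.5 and 2.0), 0.23 (5000 UMIs) and 0.15 (another seed), and for G1 IPC-like against projection neuron-like cells it became 0.070 (no TMM), 0.033 (stricter filter) and 0.076 (Leiden 2.0). In G2M RGC-like against IPC-like cells, Aspm became -0.0091 (DESeq2), -0.045 (doublets kept), -0.060 (Leiden 0.5) and -0.10 (5000 UMIs), Cdk5rap2 0.013 and Knl1 0.018 (no filter on low counts), and Knl1 0.0029 (another seed). In G1 RGC-like against IPC-like cells, Wdr62 became 0.064 (stricter filter) and 0.32 (doublets kept), Cep152 -0.014 (no filter on low counts), -0.011 (Leiden 2.0) and -0.20 (stricter filter), and Stil -0.074 (Leiden 2.0) and -0.058 (another seed). In the interaction, Wdr62 became -0.14 (stricter filter), -0.53 (doublets kept) and -0.031 (another seed), and Nde1 0.16 (doublets kept). The cause of these changes was not tested. In 1 library alone, Stil in G1 RGC-like against projection neuron-like cells, not called, was -1.13 (replicate 1) and 1.64 (replicate 3). A left-out library leaves 1 sum per state and no residual degrees of freedom, and G1 RGC-like cells, 110 and 257, limit Wdr62 and Stil most.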

Other observations

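Outside the radial glial, intermediate progenitor and projection neuron-like cells, pericyte-like cells, 47 and 44 in replicates 1 and 3, held Aspm at 77.1 and 74.0 CPM and Knl1 at 90.9 and 85.5 CPM, near the mean of all RGC-like cells for Aspm, 97.4 and 82.4 CPM. Medial ganglionic eminence interneuron-like cells, 331 and 210, resembled projection neurons in holding little Aspm (1.17 and 3.08 CPM), Nde1 (0.585 and 1.03 CPM) and no UMI of Stil in either library, with Cdk5rap2 at 55.5 and 60.7 CPM. They held more Mcph1 (59.1 and 57.6 CPM against 37.1 and 32.9 CPM) and Cep135 (26.3 and 22.6 CPM against 9.20 and 9.42 CPM) than projection neuron-like cells, given as values with no test. Microglia-like cells, 18 and 34, spread too widely to compare, with Mcph1 at 87.3 and 25.6 CPM.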
